A study of Mus musculus with 4 samples.

Results

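Calprotectin-high spots are Visium capture spots in which the 2 calprotectin genes, S100a8 and S100a9, together reached 1000 CPM or more of the spot's UMIs (unique molecular identifiers, the counted molecules; CPM is a count scaled to 1e+06 UMIs), while Arg1 and Mmp12 together stayed under 0.4% of the UMIs. Arg1 encodes arginase 1 and Mmp12 macrophage elastase. A spot at or above that limit belongs to a separate macrophage niche, called the niche here. Among 10744 spots under tissue in 4 mouse heart sections, 9619 had 5000 or more UMIs and lay under the Arg1 and Mmp12 limit, and these are called eligible. Of them, 240 were calprotectin-high, 9379 were the other eligible spots, and the niche held a further 968 spots. S100a8, S100a9, Arg1 and Mmp12 chose the spots, so their values are given as a description, and they were left out of every test.

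The sections came from formalin-fixed, paraffin-embedded hearts of wild type FVB/NJ mice. Every section came from an animal immunized with MyHCα peptide (cardiac myosin heavy chain alpha) and given antibodies to PD-1 and CTLA-4, a pair of immune checkpoint inhibitors (ICIs). In one group of 2 sections an IL-17A neutralizing antibody was given as well. The other group of 2 sections had the ICIs alone and is the one whose labels record myocarditis. Each group has a section of batch 1 and a section of batch 2, used as replicate numbers. Age is not given in the labels, no section of an untreated mouse was analysed here, and the labels do not state that different sections come from different animals. The p-values of the tests between spot classes therefore rest on counting error and on how far the class contrast differs between sections. That spread is shared across genes and may be technical.

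Calprotectin is a heterodimer of the calcium-binding proteins S100A8 and S100A9. It makes up a large part of the cytosolic protein of neutrophils, is also made by monocytes, binds zinc and manganese that microbes need, and acts as an alarmin through the receptors TLR4 and RAGE once released. IL-17A acts on stromal and endothelial cells, which then secrete G-CSF (encoded by Csf3) and the CXCR2 ligands CXCL1 and CXCL5, the signals that mobilise and attract neutrophils. Mature neutrophils carry the receptors for these signals, CSF3R and CXCR2. Granule proteins such as lactoferrin (Ltf), cathelicidin (Camp) and neutrophilic granule protein (Ngp) are transcribed mainly at an earlier stage, in the bone marrow. A Visium spot is a small area that can hold several cells of different types, so a level describes the spot and not a cell.

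The calprotectin pair lies on mouse chromosome 3. The 250 bases upstream of each start are shown because both genes defined the spots. In the RefSeq assembly GRCm38.p6, which is mm10, the S100a8 promoter is chr3:90668821-90669070 on the plus strand, and the S100a9 promoter is chr3:90695722-90695971 on the minus strand. Capitals mark matches to TTNNGNAA, a form of the C/EBP motif searched on both strands, and to TATAAA, searched on the gene strand.
S100a8: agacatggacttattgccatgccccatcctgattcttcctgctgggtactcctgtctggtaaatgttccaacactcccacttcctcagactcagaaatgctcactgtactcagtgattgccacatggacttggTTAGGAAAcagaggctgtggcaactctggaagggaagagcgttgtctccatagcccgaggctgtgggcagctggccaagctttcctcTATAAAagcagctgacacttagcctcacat
S100a9: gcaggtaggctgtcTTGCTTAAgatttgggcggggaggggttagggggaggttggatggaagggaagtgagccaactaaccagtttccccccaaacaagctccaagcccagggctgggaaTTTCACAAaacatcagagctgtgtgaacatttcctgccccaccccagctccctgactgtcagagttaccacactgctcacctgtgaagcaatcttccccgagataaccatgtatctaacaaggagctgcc
S100a8 had a C/EBP match at -117 and a TATAAA at -30 from its start. S100a9 had C/EBP matches at -236 and -130 and no TATAAA in this window. A form of the NF-kB motif, GGG and CC with 5 bases of any kind between them on both strands, had no match in either window. Among 32851 RefSeq mouse promoters of the same length, 36.8% held the C/EBP pattern, 7.59% the TATAAA and 45.8% the NF-kB pattern, and a match is a description of letters, not a bound site.

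The library totals ranged from 33005923 to 73167202 UMIs per section, with a median of 18342 and 12298 UMIs per spot in the antibody sections and of 27912 and 20623 in the sections with ICIs alone. Below 5000 UMIs lay 105 and 37 spots of the antibody sections and 11 and 4 spots of the sections with ICIs alone. Pairs of sections shared 2040 to 2239 spot barcodes, which are fixed positions of the capture grid. Over whole sections, S100a8 and S100a9 summed to 33.4 and 28.5 CPM with the antibody, against 267.7 and 441.5 CPM with ICIs alone.

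Almost all calprotectin-high spots lay in the hearts given ICIs alone. Antibody replicate 1 held 1 (0.0442% of its 2260 eligible spots, 95% Wilson interval 0.00781 to 0.250%), and antibody replicate 2 held 0 of 2500, which allows a share of up to 0.12%. With ICIs alone, replicate 1 held 49 of 2279 (2.15%, interval 1.63 to 2.83%) and replicate 2 held 190 of 2580 (7.36%, interval 6.42 to 8.44%). These intervals cover counting error only. Both antibody shares were below both shares with ICIs alone. With every eligible spot thinned to 5000 UMIs and at least 5 UMIs of the pair required, the counts were 1 and 1 with the antibody and 128 and 283 with ICIs alone, again lower in both antibody sections. The rule was proposed with results of these groups known, so the shares are a description with no test.

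**Figure D1:**
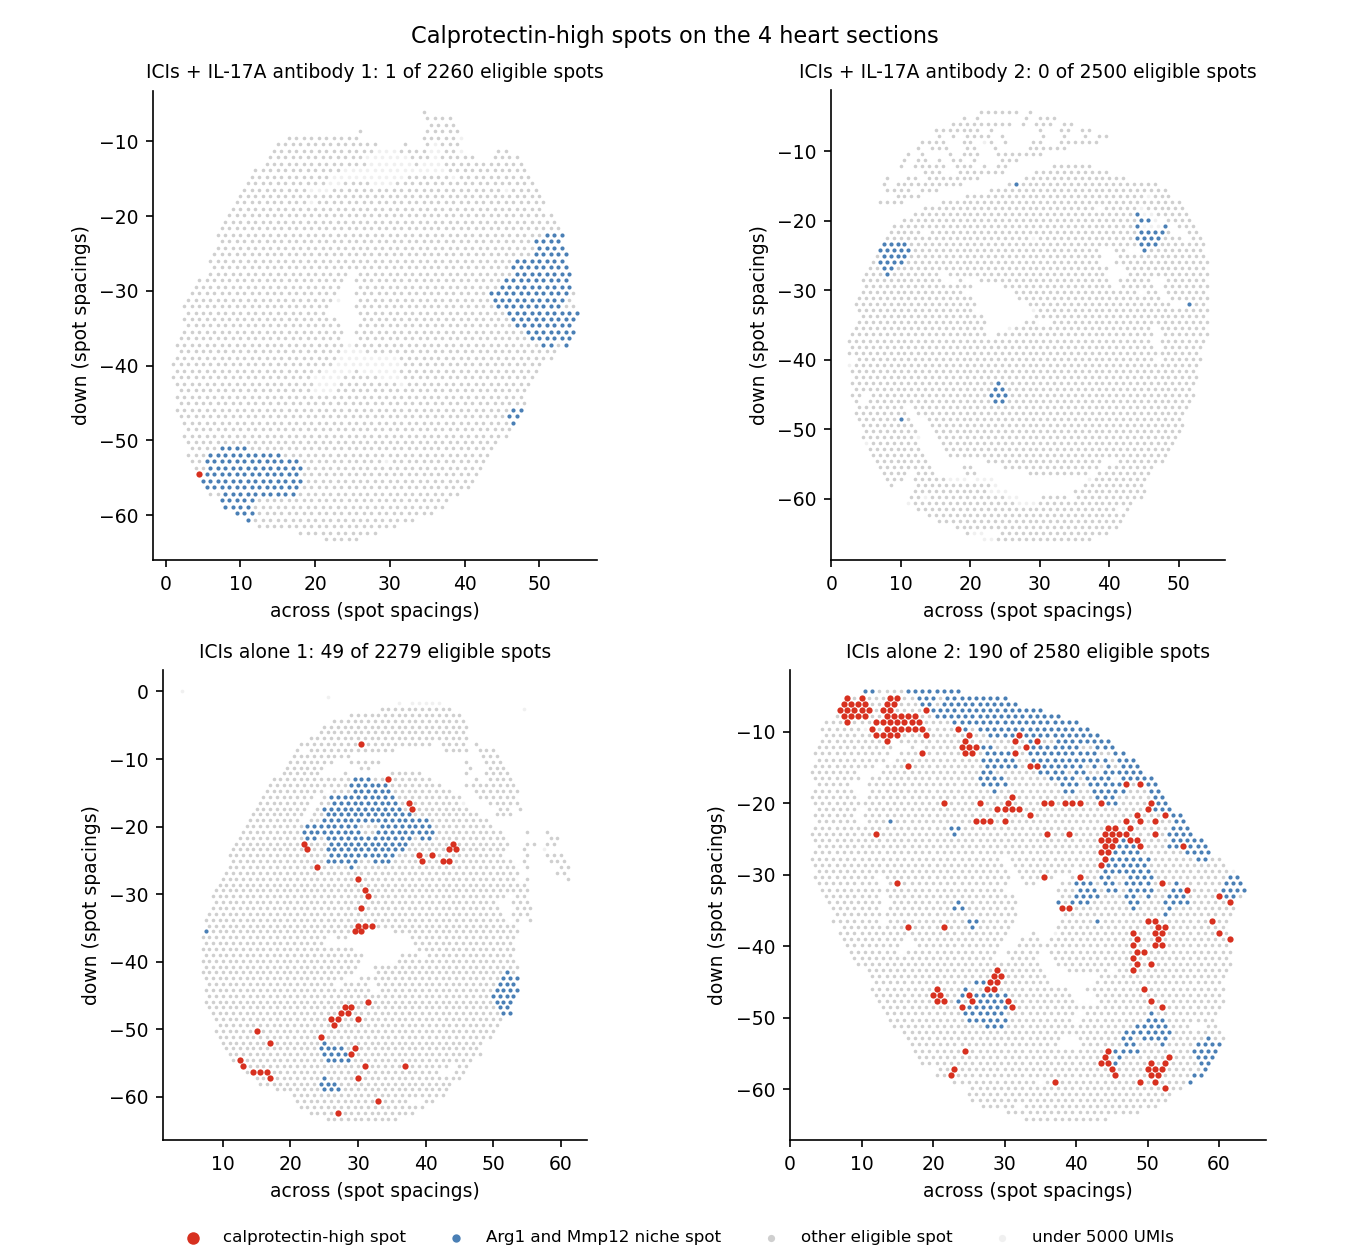
Positions of the spots under tissue in the 4 sections (columns and rows of the capture grid), with calprotectin-high spots in red, niche spots in blue and other spots in grey. The red spots number 1 and 0 in the antibody sections and 49 and 190 in the sections with ICIs alone, where they form scattered small patches around and between the niche spots.

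In the spots chosen, S100a9 gave more UMIs than S100a8. S100a8 stood at 329 and 436 CPM and S100a9 at 1012 and 1125 CPM in the calprotectin-high spots of ICI-alone replicates 1 and 2. The other eligible spots of the same sections had 58.7 and 81.5 CPM of S100a8 and 163 and 212 CPM of S100a9. The niche held 127 and 192 CPM of S100a8 and 274 and 405 CPM of S100a9, between these levels. S100a8 made up 24.5% (interval 22.8 to 26.3%) and 27.9% (26.9 to 29.0%) of the pair's UMIs in calprotectin-high spots, 26.4% and 27.8% in other spots and 31.7% and 32.2% in the niche. The proportion of the pair was thus close in calprotectin-high and other spots of each section and leaned more to S100a8 in the niche. The calprotectin-high spots carried 11.8% and 25.0% of all calprotectin UMIs of these sections, against 16.2% and 26.0% in the niche.

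The threshold cut through a continuous range. The lowest members stood at 1001 and 1003 CPM and the highest spots just outside at 995.5 and 999.7 CPM. Between 900 and 1000 CPM lay 32 and 57 spots, and between 1000 and 1100 CPM 14 and 25. Members had medians of 1222 and 1371 CPM and reached 2534 CPM in replicate 1 and 11990 CPM in replicate 2. The single antibody member stood at 1711 CPM, and the next highest eligible spot of its section at 754.7 CPM. Arg1 and Mmp12 took a median of 0.00951% and 0.0355% of the members' UMIs, far under the limit, with maxima of 0.288% and 0.386%. Calprotectin-high spots were somewhat deeper than other spots, with medians of 31652 and 24413 UMIs, against 27097 and 18793.

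Calprotectin-high spots sat in small patches nearer the niche than other spots did. In ICI-alone replicate 1 the 49 spots formed 27 patches of touching spots, the largest of 7 spots, and 16 stood alone. In replicate 2 the 190 spots formed 64 patches, the largest of 31 and the next of 20 spots, and 42 stood alone. Of the eligible neighbours of a member, 20.4% and 41.4% were members too, beside section shares of 2.15% and 7.36%. The median distance to the niche was 5 and 3 grid steps for members, against 8 and 5 for other spots. A niche spot adjoined 10.2% and 24.2% of members, against 4.80% and 11.6% of other spots. Even so, 42.9% and 14.2% of members lay more than 5 steps from any niche spot. Members were not gathered at the tissue edge, where 16.3% and 7.37% of them lay, against 17.5% and 14.1% of other spots. The antibody member adjoined the niche and lay at the edge. Spots of a section are not replicates, so these shares describe the 2 sections. The authors' deposited table of Moran's I, a score of spatial clustering over all spots, gives 0.480 and 0.231 for S100a9 in the antibody sections and 0.621 and 0.571 with ICIs alone.

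The first comparison asked which other genes were high where calprotectin was high. Counts were summed per section over the calprotectin-high and over the other eligible spots of the sections with ICIs alone, and edgeR's quasi-likelihood test was applied with the section as a block. Fold changes are log2 with standard errors, adjusted p are Benjamini-Hochberg values over all genes, and levels are CPM of the summed UMIs in ICI-alone replicates 1 and 2. Of 15034 genes tested, 1864 rose (12.4%) and 2570 fell (17.1%) in calprotectin-high spots at a threshold of 0.05, with a median log2 fold change near 0. With scaling by library size alone the median gene moved up by 0.12, and 2962 rose while 1778 fell. With 1 residual degree of freedom the fit shared its spread across genes, so a small p does not measure how far a gene's own sections differed. The DESeq2 Wald test on the same sums called 924 genes higher (6.15%) and 1372 lower (9.13%). In these sums fewer cells of a type and less RNA per cell cannot be told apart.

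Neutrophil genes were higher in the calprotectin-high spots of both sections. Of 10 neutrophil-defining genes tested, 9 rose and none fell, against 12.4% of all genes, with a median log2 fold change of 1.51. DESeq2 called 7 of them. Cxcr2, the receptor for CXCL1 and CXCL5, stood at 60.2 and 68.9 CPM in calprotectin-high spots, against 12.8 and 19.1 CPM in other spots (log2 fold change 1.86 ± 0.12, adjusted p = 1.09e-54). Csf3r, the G-CSF receptor, stood at 107 and 132 CPM, against 37.4 and 49.8 CPM (1.33 ± 0.09, adjusted p = 3.36e-51). Both receptors were higher in the calprotectin-high spots of each section. Hdc, histidine decarboxylase, which makes histamine in neutrophils and mast cells, had 92.7 and 98.1 CPM, against 28.1 and 29.7 CPM. Retnlg, a resistin-like gene of neutrophils, had 9.85 and 20.7 CPM, against 2.77 and 4.04 CPM. Cd177, a surface protein of neutrophils, was scarcer, at 2.32 and 10.7 CPM, against 1.09 and 1.56 CPM. Ly6g, the antigen by which mouse neutrophils are usually stained, was near 0 in both classes, at 0.579 and 2.77 CPM against 0.346 and 0.389 CPM, though its rise passed the edgeR test. The defining gene Stfa2l1 is not used here.

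All 16 genes of the list of neutrophil receptors rose (median 1.33), and DESeq2 called the same number. They included Trem1 and Clec4e, receptors that amplify inflammatory signals, and the formyl peptide receptors Fpr1 and Fpr2, which guide neutrophils to bacterial and mitochondrial peptides. Clec4e had 71.2 and 124 CPM in calprotectin-high spots, against 21.8 and 33.4 CPM in other spots. Fpr2 had 52.1 and 85.5 CPM, against 17.8 and 32.1 CPM. Several of these receptors are shared with monocytes and macrophages. All 4 measured subunits of the phagocyte NADPH oxidase rose as well, by a median of 0.67, among them Cybb, its catalytic subunit (327 and 306 CPM, against 196 and 216 CPM). Against spots of equal leukocyte content, the second comparison below, 0 of the 4 passed (median -0.02). All 4 were lower than in the niche (median -1.18).

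Granule genes rose too, though unevenly between the sections. Of 13 tested, 9 rose and none fell (7 by DESeq2; median 1.16). Ltf stood at 5.79 and 53.3 CPM in calprotectin-high spots, against 0.724 and 2.27 CPM in other spots (4.13 ± 0.24, adjusted p = 1.75e-60). Ngp had 2.90 and 37.3 CPM, against 0.220 and 2.03 CPM (4.02 ± 0.31). Camp had 1.16 and 40.5 CPM, against 0.787 and 2.81 CPM. Its edgeR call rests on replicate 2, where its log2 fold change was 3.71, beside 0.38 in replicate 1, and DESeq2 did not call it (adjusted p = 0.275). Lcn2, which encodes lipocalin 2 and is also made by stromal and epithelial cells, was high everywhere, at 743 and 921 CPM against 483 and 733 CPM (0.34 ± 0.07). Mpo and Elane, the azurophil granule genes of neutrophil precursors, were near 0, with 1 to 6 UMIs over the members of a section.

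In replicate 2 a few of the calprotectin-high spots held most of the granule transcripts. At least 1 UMI of Ltf, Camp or Ngp was found in 10 of 49 members of replicate 1 (20.4%) and 66 of 190 of replicate 2 (34.7%). In replicate 2, 24 spots with 5 or more such UMIs (12.6%) held 89.8% of all 615. Replicate 1 had no spot with 5 or more, and with 17 such UMIs in all its share of spots is bounded by the count. The receptor transcripts are more abundant, and Csf3r or Cxcr2 had a UMI in 49 of 49 and in 181 of 190 (95.3%). With each spot thinned to 5000 UMIs, Csf3r alone had one in 38.8% and 47.4% of members. Within replicate 2 the granule-rich spots had less receptor transcript, with Csf3r at 62.0 CPM, Cxcr2 at 34.3 CPM and Il1b at 220 CPM. The 124 members without a granule UMI had Csf3r at 147 CPM, Cxcr2 at 77.6 CPM and Il1b at 721 CPM. S100a8 was 34.9% of the pair's UMIs in the granule-rich spots and 26.4% in the spots without. These are values of 1 section with no test. The antibody member also was granule-rich, with 8 UMIs of Ltf, 8 of Camp, 12 of Ngp, 1 of Csf3r and 0 of Cxcr2.

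The highest spot of all was the centre of a granule-rich patch. It lay in ICI-alone replicate 2 at 11990 CPM and held 107 UMIs of S100a8, 166 of S100a9, 69 of Ltf, 47 of Camp, 42 of Ngp and 56 of Lcn2, with 0 of Csf3r and 0 of Cxcr2. Of its 6 neighbours, 5 were members, at 4029, 3077, 2942, 2130 and 1919 CPM, and each held UMIs of Ltf, Camp and Ngp. Without the spots over 4000 CPM the levels of replicate 2 were 34.9 CPM for Ltf, 28.9 CPM for Camp and 26.1 CPM for Ngp.

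**Figure D2:**
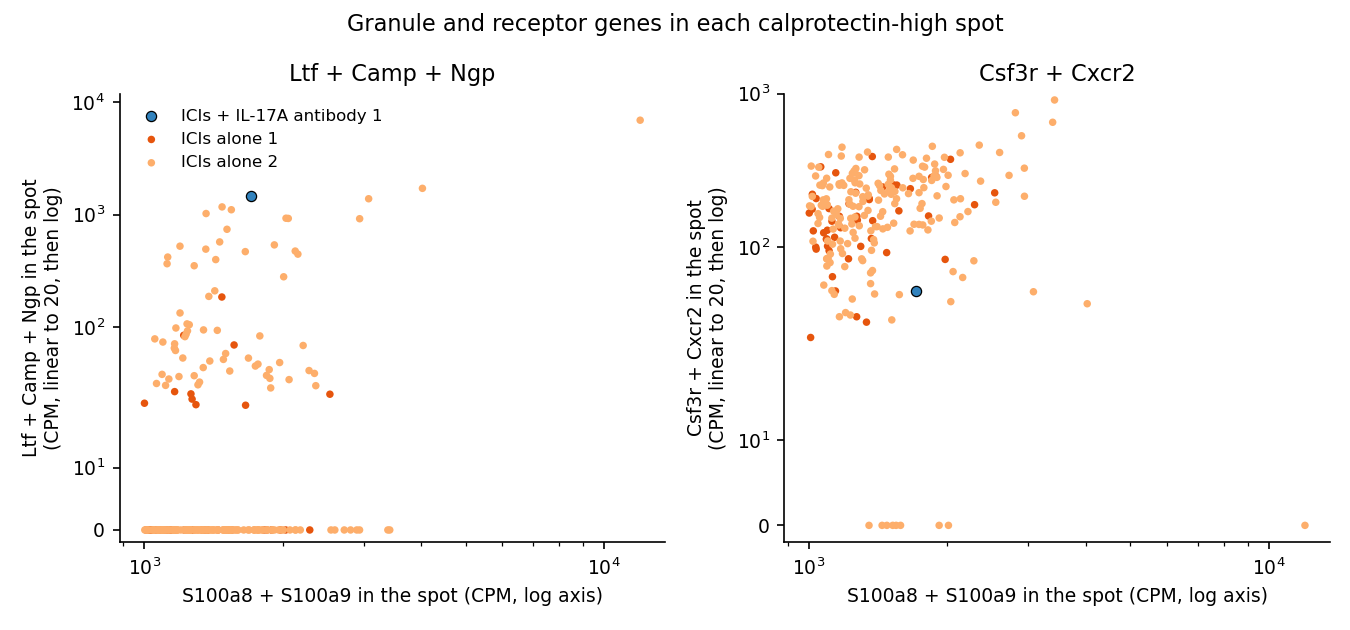
Each point is a calprotectin-high spot, placed by its S100a8 + S100a9 level (x, CPM) and its level of Ltf + Camp + Ngp or of Csf3r + Cxcr2 (y, CPM), by section. Most spots lie at 0 for the granule genes and above 0 for the receptors, and the spot at 11990 CPM has the reverse.

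The share of spots with a UMI gave the same picture as the levels. Cxcr2 was detected in 77.6% and 77.4% of members, against 22.8% and 27.2% of other spots. With each spot thinned to 5000 UMIs, the shares were 26.5% and 32.1% of members, against 4.75% and 7.57% of other spots. Csf3r was detected in 95.9% and 87.4% of members, against 44.0% and 47.5% of other spots, and Ltf in 14.3% and 25.8%, against 1.79% and 3.81%.

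Cytokines of the IL-1 family and the signals that call neutrophils rose in the same spots. In the IL-1 family 14 of 15 genes tested rose and none fell (median 0.89). Il1b, which encodes the inflammasome cytokine IL-1β, stood at 388 and 698 CPM, against 102 and 170 CPM (1.86 ± 0.07, adjusted p = 8.14e-136). Il1a had 20.3 and 71.0 CPM, against 7.16 and 14.2 CPM. Il1rn, the receptor antagonist that opposes both, rose as well, at 578 and 1081 CPM against 206 and 327 CPM. Il1r2, a decoy receptor of IL-1, had 29.5 and 59.5 CPM, against 10.1 and 21.5 CPM. Il1f9, a member of that family now named Il36g, had 66.0 and 104 CPM, against 16.4 and 28.4 CPM.

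Of 21 genes known to be induced by IL-17 signalling, 18 rose and none fell (median 0.94), and DESeq2 called 18 as well. Csf3 had 4.63 and 13.2 CPM, against 1.02 and 2.64 CPM (2.17 ± 0.33). Cxcl1 had 248 and 381 CPM, against 86.7 and 148 CPM (1.30 ± 0.07), and Cxcl5 586 and 849 CPM, against 216 and 350 CPM (1.22 ± 0.07). The ligand Cxcl5 and its receptor Cxcr2 were thus both higher in members of each section. Il6, an inflammatory cytokine, had 90.9 and 196 CPM, against 35.0 and 70.9 CPM. Ccl2, a monocyte chemoattractant, had 219 and 232 CPM, against 82.0 and 112 CPM. Many of these genes also answer to IL-1 and TNF, and Tnf itself rose (60.8 and 89.0 CPM, against 21.2 and 29.0 CPM). Osm, oncostatin M, rose by 1.60 ± 0.18.

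The IL-17 pathway's own ligands, receptors and regulators went both ways. Of 12 tested, 4 rose and 2 fell, beside 12.4% and 17.1% of all genes, and DESeq2 called 1 in each direction. Il17a was at 0 and 1.49 CPM in calprotectin-high spots and 0.582 and 0.901 CPM in other spots (0.25 ± 0.64, adjusted p = 0.823), and passed as higher with the threshold at 500 CPM (adjusted p = 0.00283). Il17ra, the subunit that binds IL-17A, had 67.2 and 75.1 CPM, against 32.8 and 43.4 CPM (0.75 ± 0.10).

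The receptors through which calprotectin acts showed no common change. Tlr4 stood at 33.0 and 32.0 CPM in calprotectin-high spots, against 31.7 and 30.1 CPM (-0.05 ± 0.12, adjusted p = 0.827). Ager, which encodes RAGE, was near 0 (1.16 and 2.77 CPM, against 0.991 and 1.35 CPM). The TLR4 co-receptor Cd14 rose (151 and 365 CPM, against 70.6 and 124 CPM), as did the adaptor Myd88 (115 and 113 CPM, against 60.4 and 59.8 CPM). Among 10 other S100 genes tested, 4 rose and 1 fell. S100a4 had 222 and 297 CPM, against 126 and 172 CPM (0.68 ± 0.07).

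T cell genes and interferon targets rose as well, and muscle genes fell. Of 14 T cell genes 9 rose and none fell (median 0.55), though DESeq2 called 3. Cd3e, a chain of the T cell receptor complex, had 34.2 and 21.1 CPM, against 15.6 and 13.4 CPM. Ifng, which encodes interferon gamma, had 29.5 and 14.1 CPM, against 5.49 and 4.14 CPM (1.94 ± 0.22). Of 19 interferon gamma response genes 18 rose and none fell (median 0.50). Cxcl10, a ligand of CXCR3, had 434 and 546 CPM, against 122 and 176 CPM (1.59 ± 0.07). Among 14 genes of lipid-handling macrophages, 6 rose and 3 fell, and their summed level was 5996 and 7019 CPM in members, against 7209 and 8272 CPM in other spots. The sum was also high 6 or more grid steps from members, at 7848 and 9318 CPM, so it is not read as macrophage content. All 13 cardiomyocyte genes fell (median -1.29, also by DESeq2), with Myh6, the main adult myosin heavy chain, at 3307 and 1828 CPM, against 10368 and 6267 CPM. Of 14 genes of fatty acid oxidation 13 fell and 1 rose. Of 18 genes of activated fibroblast matrix 13 rose and 1 fell (median 0.49). Mast cell and eosinophil markers were near 0: their lists summed to 13.3 and 18.6 CPM and to 3.48 and 5.76 CPM in members.

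Beside the genes above, the set of largest rises held Acod1, which makes itaconate in activated myeloid cells (323 and 565 CPM, against 95.7 and 150 CPM), and Serpinb2, an inhibitor of urokinase (90.9 and 334 CPM, against 30.9 and 94.0 CPM). Reg3b, an antimicrobial lectin, rose by 3.19 ± 0.33, but this came from replicate 1 (36.5 CPM, against 1.51 CPM) and hardly from replicate 2 (1.92 CPM, against 1.13 CPM), and DESeq2 did not call it (adjusted p = 0.227). The largest falls were those of Aqp7, Magix, Lrtm1, Asb15, Csdc2, Kcnip2, Efnb3, Ces1d, Car14 and Hmcn2. Aqp7 is a glycerol channel and Kcnip2 a subunit of the transient outward potassium channel of ventricular muscle.

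Neutrophil genes also rose when only nearby tissue was compared. Against eligible spots 2 or 3 grid steps from a member, 12783 genes were tested, of which 291 rose (2.28%) and 230 fell (1.8%). Of 8 neutrophil-defining genes tested 6 rose, as did 15 of 16 neutrophil receptors, 11 of 15 IL-1 family genes and 14 of 20 IL-17 response genes, and none of these lists had a member that fell. The log2 fold change was 1.51 ± 0.12 for Cxcr2 (adjusted p = 0.0018), 1.46 ± 0.18 for Il1b (adjusted p = 0.0056) and 4.62 ± 0.43 for Ltf (adjusted p = 0.00269). Of 14 T cell genes 0 passed by edgeR, with 3 at an unadjusted p under 0.05. Of the genes of activated fibroblast matrix 1 rose, and 5 of 13 cardiomyocyte genes fell.

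**Figure D3:**
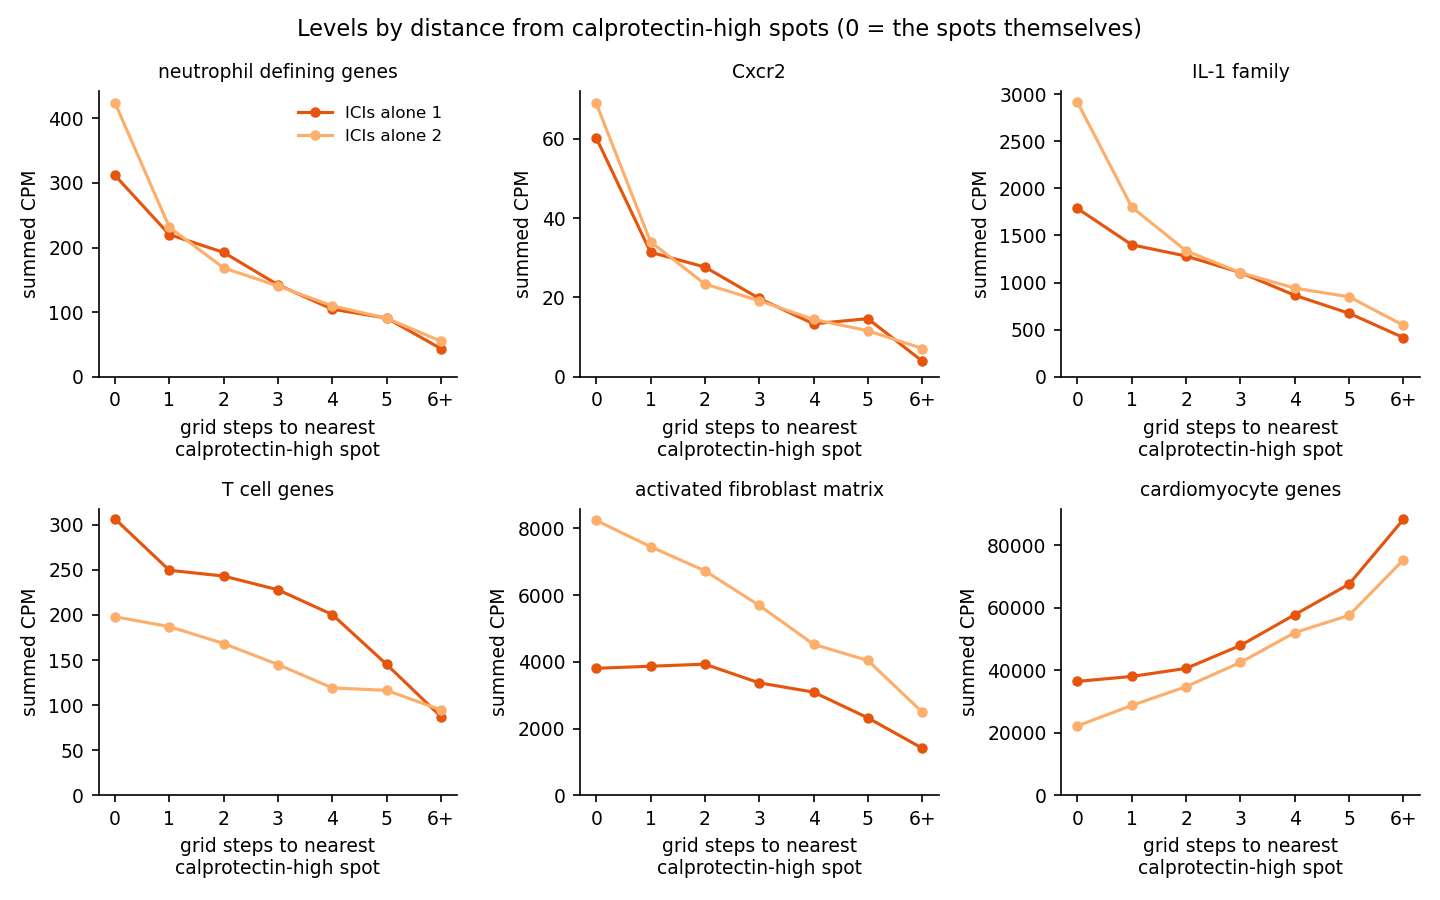
Summed CPM (linear axes from 0) of gene lists and of Cxcr2 by grid steps from the nearest calprotectin-high spot, from 0 (the spots themselves) to 6 or more, in the 2 sections with ICIs alone. Cxcr2 falls with the first step, while activated fibroblast matrix changes more gradually and cardiomyocyte genes climb outward.

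Levels by distance show how sharp each gene group's edge was. Cxcr2 stood at 60.2 CPM in members, 31.4 CPM 1 step away, 27.7 CPM at 2 steps and 3.97 CPM at 6 or more in replicate 1. In replicate 2 it stood at 68.9, 34.0, 23.4 and 7.14 CPM at the same distances. Neutrophil-defining genes together had 312, 220, 192 and 43.6 CPM in replicate 1 and 424, 231, 168 and 55.1 CPM in replicate 2. The level near members was thus still above that of distant tissue. Genes of activated fibroblast matrix, by contrast, had 3807 CPM in members and 3870 and 3931 CPM at 1 and 2 steps in replicate 1, with 1413 CPM at 6 or more. In replicate 2 they had 8241, 7453, 6730 and 2496 CPM at the same distances. The rule chose the spots at step 0 by neutrophil transcripts, so the first step is a description.

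The second comparison set each calprotectin-high spot beside a spot of equal leukocyte content. The content was the sum of 14 measured pan-leukocyte genes such as Ptprc, Coro1a and Laptm5, whose median was 3497 and 3529 CPM in members, against 1305 and 1749 CPM in other spots. Each of the 239 members with ICIs alone was matched within its section, giving medians of 3497 and 3530 CPM in the matched spots. Of 11473 genes tested, 123 rose (1.07%) and 76 fell (0.662%) by edgeR. DESeq2 called 3 (0.0261%), all higher: Ltf, Ptx3 and Cxcl10. The edgeR calls below that DESeq2 did not make are given with both sections' levels.

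Several neutrophil genes were also higher at equal leukocyte content. The members were chosen by neutrophil transcripts, so at a matched leukocyte level a rise of other neutrophil genes is partly built in. The rises of neutrophil genes are therefore a description, and their p-values are not independent evidence. Of 7 neutrophil-defining genes tested, 5 rose and none fell (median 0.73), and of 16 neutrophil receptors 9 rose and none fell (median 0.57). DESeq2 called 0 genes of these 2 lists. Of 8 granule genes tested, 2 rose and none fell (median 0.39), and DESeq2 called 1. Only 1 of the 2 rises ran the same way in both sections. Camp was detected in 2 members against 4 matched spots of replicate 1, and in 37 against 25 of replicate 2. Cxcr2 had 60.2 and 68.9 CPM in members, against 31.4 and 26.0 CPM in matched spots (1.28 ± 0.15, adjusted p = 2.63e-15; DESeq2 0.265). Csf3r had 107 and 132 CPM, against 74.1 and 75.7 CPM (0.73 ± 0.11, adjusted p = 5.2e-08). Retnlg had 9.85 and 20.7 CPM, against 2.28 and 5.36 CPM (1.98 ± 0.31). Ltf had 5.79 and 53.3 CPM, against 1.14 and 3.51 CPM (3.81 ± 0.28, adjusted p = 3.69e-37; DESeq2 0.0033). The members were above the matched spots of their section for each of these 4 genes. Of 14 T cell genes 0 passed by edgeR or DESeq2, with 1 at an unadjusted edgeR p under 0.05.

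Inflammatory signals rose in several groups. Of 15 IL-1 family genes 7 rose, and of 20 IL-17 response genes 10 rose, with none falling in either list (medians 0.50 and 0.48). DESeq2 called 0 genes of either list. Il1b had 388 and 698 CPM in members, against 271 and 295 CPM in matched spots (0.95 ± 0.09, adjusted p = 1.59e-21). Csf3 had 4.63 and 13.2 CPM, against 1.71 and 4.95 CPM, and Ccl2 219 and 232 CPM, against 139 and 147 CPM. The call was lost under 3 of 10 alternatives for Csf3 and under 2 of 13 for Ccl2. Ptx3, the secreted pattern-recognition protein pentraxin 3, had 149 and 170 CPM, against 75.9 and 80.4 CPM (1.06 ± 0.11, adjusted p = 1.22e-19; DESeq2 0.00484). Cxcl10 had 434 and 546 CPM, against 291 and 274 CPM (0.83 ± 0.09, adjusted p = 1.51e-16; DESeq2 0.00484). Ifng was the 1 cytotoxic gene of 8 to pass (29.5 and 14.1 CPM, against 5.70 and 8.46 CPM; edgeR adjusted p = 0.000196), and it lost that call under 5 of 13 alternatives. Il17a was not among the genes tested here.

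Several macrophage and matrix genes fell against matched spots. Members were chosen by neutrophil transcripts and matched on a summed leukocyte level, which leaves less room for transcripts of other leukocytes. The falls of macrophage and plasma cell genes are therefore a description. Of 14 genes of lipid-handling macrophages 5 fell and none rose (median -0.22). Trem2, a lipid receptor of macrophages, had 38.2 and 57.2 CPM in members, against 49.1 and 94.0 CPM in matched spots (-0.61 ± 0.13). Mertk, a receptor for dying cells, had 22.0 and 34.1 CPM, against 30.8 and 70.3 CPM (-0.90 ± 0.15). Apoe was lower mainly in replicate 2 (551 CPM, against 1725 CPM; in replicate 1, 376 CPM, against 420 CPM), and it lost its edgeR call with a robust spread (adjusted p = 0.912). Among 18 genes of activated fibroblast matrix 4 fell and none rose. Thbs2, thrombospondin 2, had 14.5 and 46.9 CPM, against 31.4 and 117 CPM (-1.27 ± 0.14, adjusted p = 1.51e-16), and Col1a1, a chain of type I collagen, 3632 and 10238 CPM, against 5495 and 12921 CPM. Igkc, the kappa light chain of plasma cells, had 1.74 and 45.0 CPM, against 16.5 and 101 CPM. Under 13 alternatives the call was lost 4 times for Apoe and for Col1a1, and 3 times for Trem2. For Mertk, Thbs2 and Igkc it was lost 2 times each. Cardiomyocyte genes, in contrast to the first comparison, held 1 rise and no fall among 13.

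**Figure D4:**
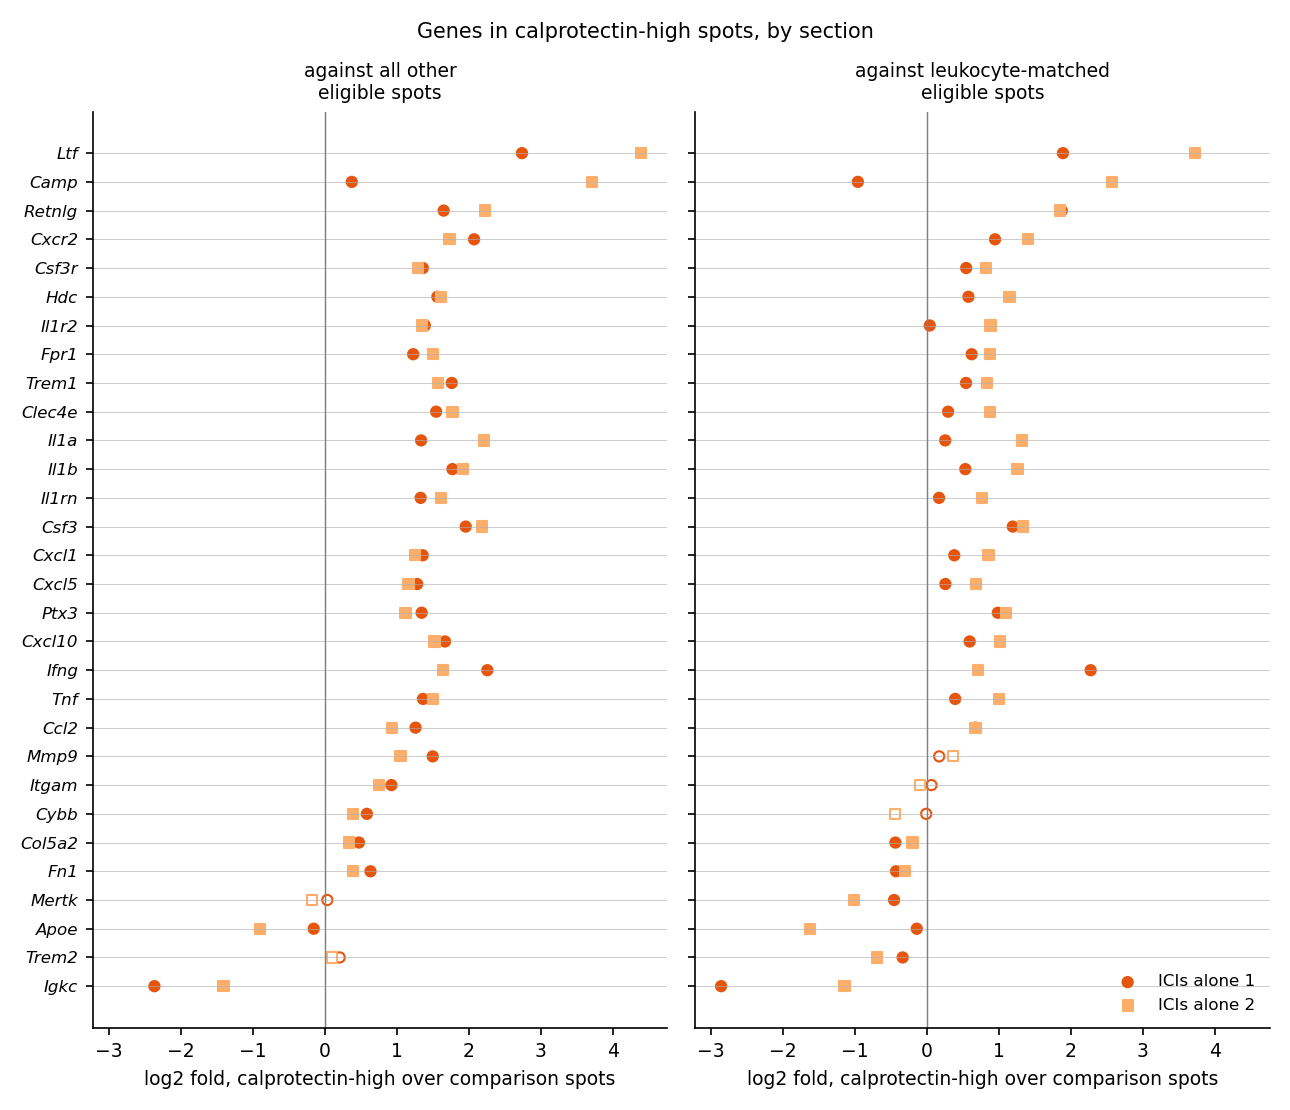
Log2 fold change of 30 genes in each section with ICIs alone, calprotectin-high against other eligible spots (left) and against leukocyte-matched spots (right). Filled points passed an adjusted p of 0.05 in the edgeR fit over both sections; Cxcr2, Csf3r and Ltf lie right of 0 in both panels, Igkc and Apoe left of 0 in both, and Camp on opposite sides of 0 by section in the right panel.

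The third comparison, added after the data were seen, asked how these spots differed from the niche that the rule kept out. Of 12273 genes tested, 2332 rose (19.0%) and 1971 fell (16.1%) in calprotectin-high spots against niche spots of the sections with ICIs alone. The pan-leukocyte genes had medians of 6378 and 6254 CPM in the niche, against 3497 and 3529 CPM in members. Leukocyte genes are thus compared here between spots of unequal leukocyte content. Cxcr2 stood at 60.2 and 68.9 CPM, against 23.5 and 34.7 CPM in the niche (1.11 ± 0.14, adjusted p = 8.31e-07), whereas Csf3r did not pass at 107 and 132 CPM, against 102 and 126 CPM (0.04 ± 0.12, adjusted p = 0.821). Of 9 neutrophil-defining genes 3 rose and 1 fell, the fall being Mmp8, neutrophil collagenase (7.53 and 23.9 CPM, against 59.1 and 49.4 CPM). Mmp8 lost this call under 2 of 11 alternatives. Of 16 neutrophil receptors 2 rose and 9 fell (median -0.52).

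The chemokine genes Cxcl5 and Cxcl1, whose products bind CXCR2, rose against the niche. Of 15 IL-1 family genes 2 rose and 7 fell, beside 19.0% and 16.1% of all genes. Cxcl5 had 586 and 849 CPM in members, against 316 and 299 CPM in the niche (1.18 ± 0.15), and Cxcl1 248 and 381 CPM, against 192 and 164 CPM (0.79 ± 0.15). Il1b had 388 and 698 CPM, against 654 and 746 CPM (-0.44 ± 0.16, adjusted p = 0.0308), and Il1rn 578 and 1081 CPM, against 2677 and 2646 CPM (-1.77 ± 0.19). The call of Il1b was lost under 2 of 11 alternatives. Ptx3 had 149 and 170 CPM, against 8.50 and 17.2 CPM (3.60 ± 0.16, adjusted p = 1.82e-14). Sele, E-selectin, by which activated endothelium captures rolling neutrophils, had 34.2 and 35.8 CPM, against 5.84 and 5.41 CPM (2.62 ± 0.22), one of 5 rises among 7 genes of activated endothelium. Against other eligible spots (26.0 and 26.8 CPM) Sele had an adjusted p of 0.0656, and under several alternatives it passed as higher (lowest edgeR adjusted p = 4.11e-06, at 500 CPM). Of 14 genes of lipid-handling macrophages 10 fell and 2 rose, with Spp1, osteopontin, at 321 and 620 CPM, against 2263 and 2490 CPM. All 13 cardiomyocyte genes rose, Myh6 standing at 3307 and 1828 CPM, against 224 and 137 CPM in the niche. The niche was chosen by macrophage genes, so the contrast of macrophage genes is a description.

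How far the antibody changed calprotectin-high spots themselves cannot be tested, since the antibody sections held 1 and 0 of them. Leukocyte-rich spots could be set side by side instead, a comparison added after the data were seen. Eligible spots with 3000 CPM or more of the pan-leukocyte genes numbered 252 and 349 in the antibody sections, against 474 and 660 with ICIs alone. At 4000 CPM or more lay 173 and 180 of them with the antibody, against 211 and 280, so leukocyte content was not equal. Calprotectin-high were 1 (0.397%) and 0 (up to 0.860%) of them with the antibody, and 33 (6.96%) and 127 (19.2%) with ICIs alone. Leukocyte-rich tissue was thus present with the antibody, but it was rarely calprotectin-high.

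In that leukocyte-rich tissue Cxcr2, Csf3r and the CXCR2 ligand genes Cxcl5 and Cxcl1 were lower in both antibody sections. Cxcr2 stood at 6.39 and 3.58 CPM with the antibody, against 29.4 and 40.5 CPM with ICIs alone. Csf3r stood at 42.3 and 47.4 CPM, against 84.5 and 97.6 CPM. Cxcl5 stood at 155 and 133 CPM, against 486 and 629 CPM, and Cxcl1 at 52.7 and 42.3 CPM, against 190 and 270 CPM. T cell genes went the other way, with 692 and 595 CPM, against 344 and 256 CPM, as did cytotoxic genes with 374 and 350 CPM, against 155 and 119 CPM. Interferon gamma response genes summed to 16941 and 16134 CPM, against 12063 and 9473 CPM. These differences were not confined to leukocyte-rich tissue. In eligible spots under 1000 CPM of the pan-leukocyte genes, Cxcr2 had 0.394 and 0.504 CPM with the antibody, against 1.47 and 4.02 CPM. Cxcl5 had 1.97 and 8.27 CPM there, against 27.3 and 59.3 CPM. Interferon gamma response genes had 6217 and 10728 CPM there, against 5252 and 1617 CPM. In the leukocyte-rich spots Il1b overlapped between the groups, at 355 and 217 CPM with the antibody and 302 and 441 CPM with ICIs alone. The IL-1 family as a whole overlapped too. In the group of 3000 to 4000 CPM neither overlapped: Il1b had 177 and 130 CPM with the antibody, against 200 and 357 CPM. The IL-1 family had 1243 and 1197 CPM there, against 1295 and 1887 CPM. In the group of 2000 to 3000 CPM, Il1b had 67.8 and 65.5 CPM with the antibody, against 90.2 and 222 CPM. With 2 sections per group the exact two-sided permutation test cannot go below p = 0.333. That was the value of each measure whose groups did not overlap (Benjamini-Hochberg 0.4 over 12 measures). The test gave 0.667 for the 2 that overlapped. The 12 measures were chosen, and the share of all genes without overlap was not tested, so there is no background for their number. The leukocyte-rich spots were deeper with ICIs alone, with medians of 37084.5 and 25843.5 UMIs, against 23154.5 and 16284 with the antibody. The part of depth in these levels was not tested. Within batches, Cxcr2 with the antibody was 0.217 times its level with ICIs alone in batch 1 and 0.0885 times in batch 2.

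**Figure D5:**
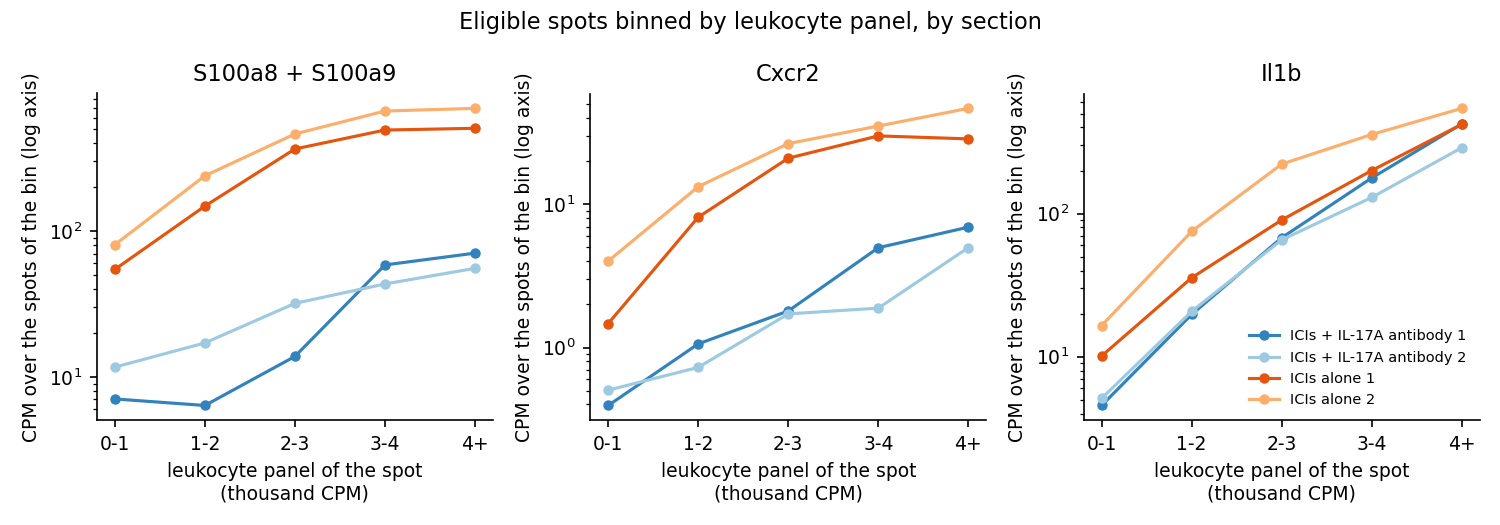
Levels of S100a8 + S100a9, Cxcr2 and Il1b (CPM, log axis) in eligible spots grouped by their pan-leukocyte level in steps of 1000 CPM, with a line for each of the 4 sections. In the leukocyte-rich groups the antibody lines lie below the lines with ICIs alone for S100a8 + S100a9 and Cxcr2, while those of Il1b meet in the highest group.

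Among members, the genes whose level varied most like that of the pair were only weakly alike. Across member spots of each section with ICIs alone, the mean Spearman correlation with S100a8 + S100a9 was 0.293 for Ifitm1, an interferon-induced membrane gene, 0.261 for Luzp1, 0.255 for March6 and 0.238 for Csf3r. These were the highest of 6038 genes with a UMI in at least 50% of member spots of both sections, whose median was -0.008. The spots share depth and section, the levels behind these ranks are sparse, and the values are a description. Spots among the top 10% of their section for neutrophil-defining genes made up 75.5% and 60.5% of members. For IL-17 response genes the shares were 51.0% and 47.9%, for T cell genes 30.6% and 17.9%, and for genes of lipid-handling macrophages 0% and 4.74%. The sum of that last list was also high in spots poor in leukocytes. It stood at 8244 and 9308 CPM in eligible spots under 1000 CPM of the pan-leukocyte genes, so its shares do not measure macrophage content.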

How the data were processed

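Visium libraries of 4 heart sections were used, 1 per section. The authors deposited raw counts of UMIs for each gene in each spot under tissue, made with Space Ranger 2.1.0 per the file headers. The mouse genome mm10 and Seurat 5.1.0 are named per the submitters' processing notes, and the sources used here do not give the probe set. The other deposited values are the row and column of each spot on the capture grid and a score per gene, Moran's I. The matrices list 19465 genes, of which 11 symbols are repeated, and 26 of 564 genes in the lists are not used here. A pair of listed symbols, Il36a and Il36g, was matched to Il1f6 and Il1f9 through the RefSeq synonyms of GRCm38.p6.

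The member spots and the gene lists were chosen with earlier results of these data known. Raw counts were summed per section and spot class for sections with at least 5 members. They were filtered with filterByExpr by class, scaled by TMM, and tested by edgeR's quasi-likelihood method (edgeR 4.0.16 and limma 3.58.1 in R 4.3.3), section as a block, adjusted after Benjamini and Hochberg at 0.05. S100a8, S100a9, Arg1 and Mmp12 were left out, and the leukocyte panel too in the matched comparison. Matching used log2(CPM + 10) within 0.5. The fits had 1 residual degree of freedom and a common biological coefficient of variation of 5.01%, 5.91% and 9.64% in the comparisons with other, matched and niche spots. Levels in the text are CPM by library size alone, and standard errors derive from each gene's fold change and F statistic. Tests were tried on simulated data. DESeq2 1.42.0, other scalings, filters, thresholds and spot selections were alternatives. Python 3.11.15, numpy 2.4.6, scipy 1.17.1, pandas 2.3.3 and matplotlib 3.10.9 were used. Genes named are members of the lists, or among the 20 largest rises and 10 largest falls of a test that passed, held 10 CPM or more in either class and ran the same way in both sections.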

Additional observations from a re-analysis of the deposited data

Results flagged for a closer look

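Lowering the threshold to 500 CPM gave 7 spots in antibody replicate 2, with 87839 UMIs in all, which could be set against the 324 and 607 spots of the sections with ICIs alone. The antibody arm is then 1 section, assumed to vary like the others, so the p-values below rest on the spread between the sections with ICIs alone. In a test of the interaction of spot class with treatment by edgeR over 14128 genes, 4 passed on that assumption. Fabp3, a fatty acid binding protein of heart muscle, had a log2 difference of 1.34 (adjusted p = 0.0450) and Nos2, inducible nitric oxide synthase, of 1.61 (adjusted p = 0.0450). Nppa, atrial natriuretic peptide, had -2.16 (adjusted p = 0.0450), and Myl4, the atrial light chain, had -7.35 (adjusted p = 0.0469), on 1 UMI in the antibody spots. Atrial genes stood apart in that antibody section: they summed to 2107 CPM in its other spots and to 49.8 CPM in those of antibody replicate 1, against 37.4 and 41.5 CPM in those of the sections with ICIs alone. Their part in the values of Nppa and Myl4 was not tested. In the direct comparison of the antibody with ICIs alone within these spots, edgeR called 0 of 13111 genes, with 1177 at an unadjusted p under 0.05.

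Spots under 5000 UMIs entered no comparison. In the 37 such spots of antibody replicate 2 the calprotectin pair had 6 UMIs in all (39.6 CPM), above the 3 that a count of 0 allows, with at most 3 in a spot and none of the spots at 1000 CPM.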

How the results depend on the processing

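No paired analysis was possible because the antibody sections held 1 and 0 calprotectin-high spots, so the batch numbers pair no 2 groups of these spots. In leukocyte-rich spots each batch has a section of each treatment, and the log2 difference of antibody minus ICIs alone within batches 1 and 2 was -2.20 and -3.50 for Cxcr2 and 0.23 and -1.02 for Il1b. For the same reason the tests of treatment planned at 1000 CPM were not run, and at 2000 CPM 1 section had enough members for a test. Leaving out a section leaves no residual degree of freedom, so each section's own fold change stands in its place, with no test. Against other spots, the 4434 calls were 2296 with DESeq2 and 521 with spots 2 or 3 steps away only, which tests fewer genes over fewer spots. Against matched spots, the 199 calls were 3 with DESeq2, 46 with no filter on low counts, 60 with Arg1 and Mmp12 under 0.2%, 7 with spots thinned to 5000 UMIs and 126 without spots within 2 steps of the niche. Against the niche, the 4303 calls were 1992 with DESeq2. The cause of these differences was not tested. Shares of calprotectin-high spots moved with the threshold by construction. In the antibody sections they were 0% in replicate 1 at 2000 CPM and 0.28% in replicate 2 at 500 CPM. With ICIs alone they were 14.2% and 23.5% at 500 CPM, 0.132% and 1.05% at 2000 CPM, and 5.61% and 10.95% in thinned spots. No named gene that had passed changed direction under any of these alternatives. Of the single-gene values under the alternatives, 53 lost their call and 8 gained one. The gains were Il17a at 500 CPM and otherwise Sele, both against other spots. Of the losses 14 came with spots 2 or 3 steps away and 13 with DESeq2 against matched spots. The other 1252 values include each section's own fold change, which has no test. Not all of the 1252 kept their direction: Il17a was lower in members of ICI-alone replicate 1 and higher over both sections. The sections with ICIs alone are the deeper ones, and genes of a few UMIs in members, such as Ly6g, Ager and Il17a, are at the limit of this depth.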

Other observations

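Monocyte, cell death and proliferation genes were among the groups that also rose against other eligible spots of the sections with ICIs alone. Of 11 monocyte genes 8 rose and 2 fell by edgeR (median 0.62), beside 12.4% and 17.1% of all genes. Plac8, a gene of classical monocytes and neutrophils, had 309 and 311 CPM in calprotectin-high spots, against 107 and 129 CPM (log2 fold change 1.26 ± 0.07), and Ccr2, the receptor for CCL2, 412 and 241 CPM, against 237 and 190 CPM. Of 14 genes of resident macrophages 2 rose and 6 fell, though the list had a median of 0.04 in replicate 1 and -0.23 in replicate 2. Among the falls was Mrc1, the mannose receptor (129 and 98.1 CPM, against 137 and 179 CPM), which fell mainly in replicate 2. Against spots 2 or 3 steps away 0 of the 14 passed. Of 12 proliferation genes 10 rose and none fell (median 0.54), with Top2a at 61.4 and 81.3 CPM, against 34.2 and 50.9 CPM. Of 12 cell death genes 8 rose and none fell (median 0.43), with Zbp1, a sensor of Z-form nucleic acid, at 233 and 215 CPM, against 117 and 127 CPM. Most of these rises were not called in the other comparisons. Against spots 2 or 3 steps away, 3 of 11 monocyte, 0 of 11 proliferation and 1 of 12 cell death genes rose. Against matched spots 2 of 11, 0 of 11 and 0 of 12 rose. Of all genes, 2.28% and 1.07% rose in these 2 comparisons.

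Genes of fibrinolysis and clotting divided. Of 12, 5 rose and 3 fell against other eligible spots, where 12.4% of all genes rose and 17.1% fell. Plaur, the urokinase receptor, had 145 and 294 CPM, against 54.9 and 107 CPM. Thbd, the endothelial anticoagulant thrombomodulin, fell (29.5 and 22.4 CPM, against 43.6 and 35.8 CPM). Ptgs2, the inducible cyclooxygenase, rose by 1.42 ± 0.12 (29.0 and 68.0 CPM, against 12.7 and 21.2 CPM), and Slc2a1, the basal glucose transporter, by 0.99 ± 0.07 (208 and 322 CPM, against 102 and 141 CPM), though of 13 genes of hypoxia and glycolysis 4 rose and 4 fell. Erythroid genes were lower in members: of 6, 4 fell and none rose, with Hbb-bs, a beta globin, at 664 and 267 CPM, against 953 and 372 CPM. Their part, as a measure of blood in the tissue, in the neutrophil values was not tested.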
